A study of Mus musculus with 39 samples.

Results

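The RNA-seq series compared 39 libraries in 13 groups of mouse gubernaculum and testis, and 6 of these libraries describe how the normal gubernaculum changes after birth. They were chosen by their labels: 3 libraries of wild-type (WT) gubernaculum at postnatal day 8 (P8) and 3 of WT gubernaculum at postnatal day 23 (P23). All 6 came from male mice of a C57BL/6J background that carried the native mouse Insl3 gene, with no transgene and no treatment in the labels. The design text of the series mentions gubernaculum at P8 only, whereas the sample titles name P23 gubernaculum too, and the grouping follows the titles. The other genotype sequenced at both ages was INSL3-KI, in which a cetacean INSL3 coding sequence replaces that of mouse Insl3 at its own locus. RNA was read from bulk tissue, so fewer cells of a type and less RNA per cell cannot be told apart in any value below.

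The gubernaculum is the cord that ties the testis to the inguinal region. INSL3 from Leydig cells acts on it through the receptor RXFP2, and androgen acts on it during the later, inguinoscrotal descent of the testis. In rodents its outer layer becomes the striated cremaster muscle around a core of fibroblasts and matrix. Skeletal muscle that forms before birth uses embryonic and neonatal contractile isoforms and later exchanges them for adult ones, while myoblasts stop dividing and motor nerve contacts mature.

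Total counts were close in the 6 libraries, 34312042 to 37707231. Of 15053 genes tested with edgeR, 917 (6.09%) were higher and 649 (4.31%) lower at P23, at an adjusted p under 0.01 and at least a 2-fold change. Only genes past both limits are said to rise or fall, amounts after "rose by" and "fell by" are log2 fold changes, and every adjusted p is that of edgeR. The first principal component held 64.6% of the variance and separated the ages. Libraries of the ages did not overlap for 54.2% of genes, 27.3% being higher and 26.9% lower. Replicates were less alike at P23 than at P8 (correlations of log-CPM across genes of 0.945 to 0.963 against 0.963 to 0.981). P23 replicate 1 had the most muscle RNA: the 15 pan-muscle genes summed to 51750.0 CPM (read counts divided by TMM-scaled library size) there, to 30786 and 28975 CPM in the other P23 libraries and to 18263 to 20173 CPM at P8. P23 replicate 3 alone held RNA of epididymal duct, with Crisp1, an epididymal secretory gene, at 0, 0.113 and 914 CPM at P23 and at most 0.0839 CPM at P8. P8 replicate 1 held the most Prm2, a gene of spermatids, at 14.1, 3.21 and 0.0839 CPM at P8 and 1.59, 0 and 0.220 CPM at P23. Leaving out 1 library changed the counts of calls most for the P8 libraries: 170 genes were higher and 221 lower without P8 replicate 1, 142 and 158 without P8 replicate 2, and 121 and 142 without P8 replicate 3. Without P23 replicate 2 the counts were 578 and 432. Of the 147 called genes named below, 53 to 59 kept their call without a P8 library and 106 to 131 without a P23 library. Directions held for all 147 with each of the 6 libraries left out, and the highest adjusted p was 0.0476 (Ckm, without P8 replicate 3). The part that the composition of these libraries plays in the results below was not tested, except where a value without a library is given.

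The balance of contractile isoforms changed between P8 and P23. Of 9 striated myosin heavy chain genes tested, 3 rose and 4 fell, beside 6.09% and 4.31% of all genes. Reads shared by these similar genes were split by a counting program not given in the sources used here. Myh3, the embryonic chain, stood at 3457, 3125 and 3440.2 CPM at P8 and 113, 297 and 72.9 CPM at P23 (log2 fold change -4.38, SE 0.54, adjusted p = 0.00198). Every P8 library was far above every P23 library. Myh8, the neonatal chain, stood at 6087, 9283 and 8745 CPM at P8 and 2355, 2635 and 2136 CPM at P23. It fell less than Myh3 and remained abundant (log2 fold change -1.76, SE 0.26, adjusted p = 0.00347).

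The adult fast chains moved the other way. Myh1, which encodes the IIx chain, stood at 175, 721 and 736 CPM at P8 and 16365, 12364 and 9744 CPM at P23 (log2 fold change 4.56, SE 0.60, adjusted p = 0.00243). Myh2, the IIa chain, stood at 55.6, 369.9 and 222 CPM at P8 and 5786, 2363 and 2600.3 CPM at P23 (log2 fold change 4.05, SE 0.72, adjusted p = 0.00641). Myh4, the IIb chain of the fastest fibres, stood at 20.5, 66.1 and 31.8 CPM at P8 and 4688, 1372 and 1203 CPM at P23 (log2 fold change 5.94, SE 0.76, adjusted p = 0.00217). Groups did not overlap for these 3 genes, and P23 replicate 1 was the highest library for each. The calls of Myh3, Myh8, Myh1, Myh2 and Myh4 were each lost without at least 1 library, with adjusted p up to 0.0329 (Myh2, without P8 replicate 3). Myh7, the slow chain, did not pass the test, with 1078, 1382 and 1399 CPM at P8 and 4206, 1855 and 1437 CPM at P23 (log2 fold change 0.96, SE 0.40, adjusted p = 0.0972). Myh3, Myh2, Myh1, Myh4 and Myh8 lie in that order on the plus strand of chromosome 11 (GRCm38), from 67078300 to 67308634.

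FPKM, the deposited values scaled by gene length, allow isoforms to be compared with each other. Of the FPKM summed over 9 striated heavy chains, Myh8 took 58.3% ± 3.08 at P8 and 10.5% ± 3.13 at P23 (SD, n = 3 each), the largest share at P8. Myh3 took 25.4% ± 5.66 at P8 and 0.723% ± 0.598 at P23. Myh1 took 3.88% ± 1.96 at P8 and 54.9% ± 5.48 at P23, the largest share at P23. Myh2 took 1.51% ± 0.984 at P8 and 14.5% ± 2.99 at P23, and Myh4 took 0.284% ± 0.139 at P8 and 9.20% ± 4.17 at P23. The slow Myh7 took 9.43% ± 0.326 at P8 and 9.70% ± 2.22 at P23, a share that overlapped between ages. By this measure the myosin RNA of P8 gubernaculum was mostly neonatal and embryonic, and that of P23 mostly IIx.

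Shares were also computed in 21 pairs of related genes, each setting an embryonic, perinatal, cardiac, slow or general form first and a fast, adult or muscle form second. The first gene's share of the summed FPKM was lower in every P23 library than in every P8 library for 18 pairs, higher for 0, and overlapped for 3. The 21 pairs were chosen with earlier results of these data known, so this count is not independent evidence of a shift. Of single genes, 54.2% did not overlap between the ages, and the share over gene pairs at large was not computed. With 3 libraries against 3, the exact two-sided permutation test cannot go below p = 0.1, which all 18 reached (0.117 after adjustment over the 21 pairs). Of these pairs, 6 set a general form against a muscle form, such as Eno1 with Eno3, and 5 of the 6 had the lower share. In them, a change of form and more muscle RNA in the tissue cannot be told apart. The pair of Myl4 and Mylpf joins an essential and a regulatory light chain, which are not alternatives for 1 site. The share of cardiac actin Actc1 against skeletal actin Acta1 was 24.4%, 17.2% and 16.9% at P8 and 0.606%, 1.80% and 0.667% at P23. For cardiac troponin T Tnnt2 against fast Tnnt3 it was 18.5%, 13.5% and 14.6% at P8 and 1.46%, 2.55% and 1.76% at P23. The first gene was the smaller part of both pairs at both ages, unlike in the pairs of Myh3 or Myh8 with Myh4. The 3 pairs that overlapped were Ckb with Ckm, Cpt1a with Cpt1b, and Ldhb with Ldha.

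**Figure D1:**
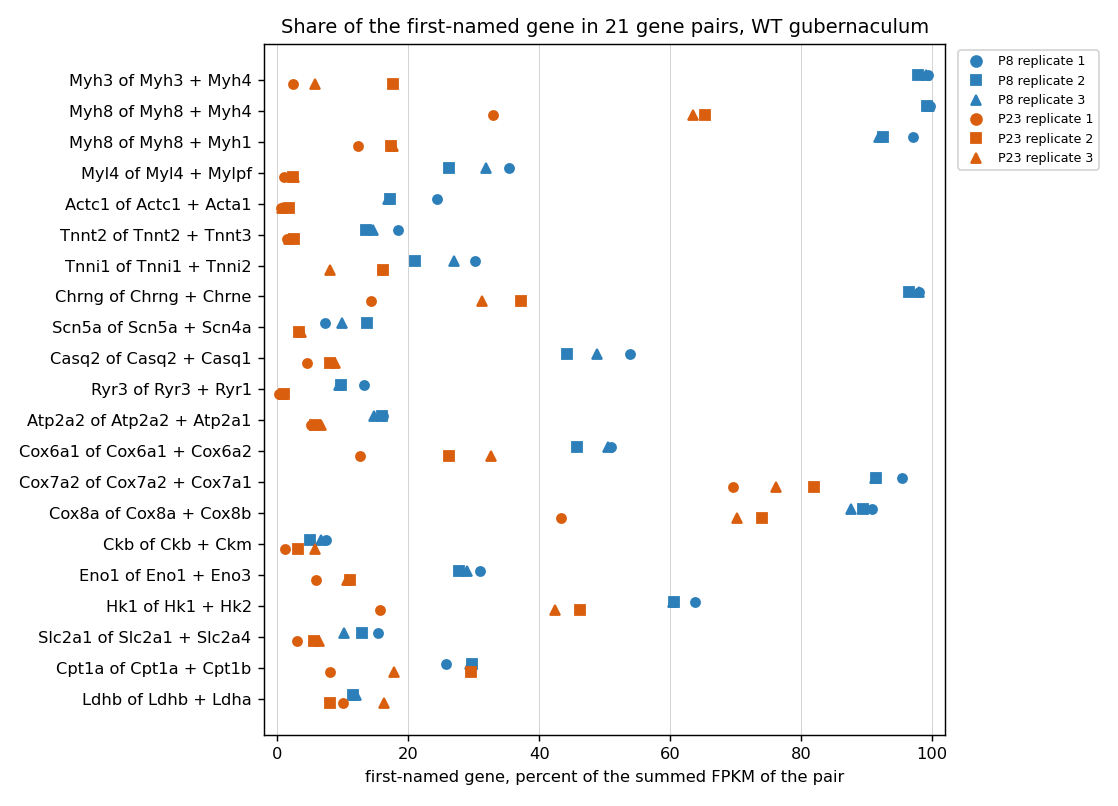
Each point is 1 WT gubernaculum library and gives the share of the first-named gene in the summed FPKM of its pair, in percent, for 21 pairs. P23 points lie left of all P8 points in 18 pairs, and the ages overlap for Ckb, Cpt1a and Ldhb.

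Called genes among the first-named partners included Actc1, Tnnt2 and Myl4, the embryonic and atrial light chain. Actc1 stood at 4906, 2808 and 2865 CPM at P8 and 303, 651 and 202 CPM at P23 (log2 fold change -3.19, SE 0.49, adjusted p = 0.00381). Myl4 stood at 1156, 746 and 964 CPM at P8 and 58.4, 113 and 73.1 CPM at P23 (log2 fold change -3.55, SE 0.31, adjusted p = 0.000745). Tnnt2 stood at 434, 354 and 340.0 CPM at P8 and 134, 134 and 76.2 CPM at P23 (log2 fold change -1.71, SE 0.25, adjusted p = 0.00315). These groups did not overlap. Whichever library was left out, Myl4 kept the call, and the others reached an adjusted p of up to 0.0164 (Actc1, without P8 replicate 1). Acta1, the gene with the highest CPM in every P23 library, stood at 14904, 13167 and 13725 CPM at P8 and 48622, 34841 and 29352 CPM at P23 and missed the threshold (log2 fold change 1.43, adjusted p = 0.0128), although its groups did not overlap. Tnnt3 missed it as narrowly (log2 fold change 1.53, adjusted p = 0.0104). Ttn, the giant sarcomere spring, had overlapping groups, with 2750.3, 4257 and 4520.2 CPM at P8 and 6169.5, 2925 and 2759 CPM at P23 (log2 fold change 0.04, adjusted p = 0.941).

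Several sarcomere genes rose, in lists set beside the 6.09% of all genes that rose and the 4.31% that fell. Of 9 light chain genes 1 rose and 1 fell, of 8 troponins 0 rose and 1 fell, of 14 thin filament genes 3 rose and 1 fell, and of the 15 pan-muscle genes 5 rose. Among 38 genes of the thick filament, M-band and Z-disc, 13 rose and 1 fell, with a median log2 fold change of 0.98 (0.00 over all genes tested). Actn3, the fast-fibre alpha-actinin, stood at 332, 523 and 450.2 CPM at P8 and 2987, 1920.1 and 1529.6 CPM at P23 (log2 fold change 2.30, SE 0.31, adjusted p = 0.00259). Tcap, which caps titin at the Z-disc, stood at 92.9, 114 and 121 CPM at P8 and 2072, 765 and 581 CPM at P23 (log2 fold change 3.38, SE 0.49, adjusted p = 0.00321). Both groups were apart, with P23 replicate 1 highest. Mybpc2, the fast myosin-binding protein C, rose by 3.004 (adjusted p = 0.00182), Nrap by 2.14 (adjusted p = 0.00545) and the skeletal light-chain kinase Mylk2 by 2.27 (adjusted p = 0.00854). The stretch-responsive Ankrd1 was the 1 that fell, from 115, 97.7 and 116 CPM at P8 to 34.4, 38.2 and 13.2 CPM at P23 (log2 fold change -1.94, adjusted p = 0.00704). For Actn3, Tcap, Mybpc2, Nrap, Mylk2 and Ankrd1, each call was lost without at least 1 library, and adjusted p reached 0.0387 (Mylk2, without P8 replicate 1).

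Because P23 libraries held more muscle RNA, the same fit was repeated with libraries scaled to an equal geometric mean of the 15 pan-muscle genes. On this scale, which lowers the median of all genes by 0.927 (log2), the log2 fold change of Myh3 was -5.26 and that of Myh8 -2.68. That of Myh1 was 3.59 and that of Myh4 4.79. The change of Acta1 was 0.43 (edgeR adjusted p = 0.0857). Myh7 had -0.14 here, against 0.96 on the usual scale. Ttn, itself 1 of the 15 genes, had -1.02. Myh3, Myh8, Myh1, Myh2 and Myh4 were called in the same direction on both scales. Over all genes the pan-muscle scale gave 267 higher and 4097 lower calls, against 917 and 649. Among the 38 genes of the thick filament, M-band and Z-disc it gave 7 higher and 7 lower. The scale centres the 15 pan-muscle genes, and this list shares members such as Tcap with them. The split is therefore partly set by the scaling.

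**Figure D2:**
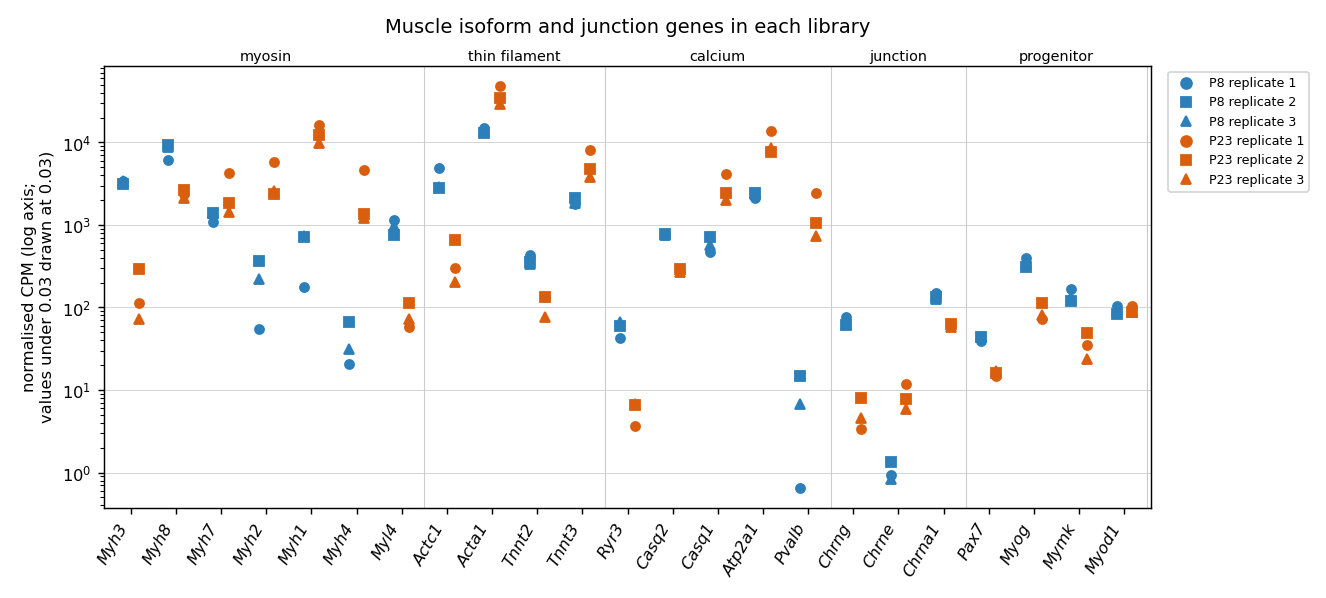
Each point is 1 WT gubernaculum library, with normalised CPM on a log axis for muscle genes grouped by role. P8 and P23 points are apart in opposite directions for early genes such as Myh3, Chrng and Ryr3 and adult genes such as Myh4, Chrne and Pvalb, while Myod1 overlaps.

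Genes of excitation-contraction coupling, which turn a membrane impulse into calcium release, rose more often than they fell. Of 32 tested, 9 rose and 2 fell (median 0.91), beside 6.09% and 4.31% of all genes. On the pan-muscle scale 4 were higher and 5 lower, and Clcn1 lost its call (log2 fold change 1.06, adjusted p = 0.0104). Pvalb, the calcium buffer of fast fibres, stood at 0.644, 14.95 and 6.77 CPM at P8 and 2419, 1068 and 726 CPM at P23 (log2 fold change 7.55, SE 1.13, adjusted p = 0.00362). It went from barely detected in P8 replicate 1 to an abundant RNA in every P23 library. Atp2a1, the fast calcium pump of the sarcoplasmic reticulum, stood at 2105, 2455 and 2388 CPM at P8 and 13828, 7600.2 and 8573 CPM at P23 (log2 fold change 2.11, SE 0.30, adjusted p = 0.00313). Casq1, the fast-fibre calsequestrin that stores calcium there, stood at 474, 707 and 569 CPM at P8 and 4168, 2433 and 1987 CPM at P23 (log2 fold change 2.29, SE 0.33, adjusted p = 0.00313). The muscle chloride channel Clcn1 rose by 2.08 (adjusted p = 0.00306). The 2 that fell were the early or slow counterparts: Casq2, the slow and cardiac calsequestrin, at 766, 779 and 750.1 CPM at P8 and 271, 296 and 266 CPM at P23 (log2 fold change -1.46, SE 0.15, adjusted p = 0.00112), and Ryr3, the second release channel of young muscle, at 43.01, 59.6 and 65.8 CPM at P8 and 3.63, 6.49 and 6.76 CPM at P23 (log2 fold change -3.31, SE 0.28, adjusted p = 0.000677). Leaving out single libraries ended no call of Casq2 and Ryr3, while the others had adjusted p values up to 0.0247 (Atp2a1, without P8 replicate 3).

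RNA of the fetal subunit of the muscle acetylcholine receptor fell and that of the adult one rose. This receptor at the neuromuscular junction holds alpha, beta and delta subunits with gamma in fetal and newborn muscle or epsilon in adult muscle. Chrng, the gamma subunit, stood at 76.5, 61.8 and 63.7 CPM at P8 and 3.39, 7.93 and 4.61 CPM at P23 (log2 fold change -3.66, SE 0.31, adjusted p = 0.000666). Chrne, the epsilon subunit, stood at 0.924, 1.35 and 0.839 CPM at P8 and 11.7, 7.79 and 5.96 CPM at P23 (log2 fold change 3.02, SE 0.36, adjusted p = 0.00174). Neither gene overlapped between ages. The gamma share of their summed FPKM was 98.1%, 96.5% and 97.98% at P8 and 14.3%, 37.3% and 31.3% at P23. Gamma was thus nearly all of the sum in each P8 library and the smaller part in each P23 library. The shared subunits Chrna1 and Chrnd fell, with log2 fold changes of -1.17 (adjusted p = 0.00128) and -1.995 (adjusted p = 0.00056). The calls of Chrng, Chrna1 and Chrnd held with each library left out in turn, and the highest adjusted p among the others was 0.0132 (Chrne, without P8 replicate 3).

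The windows of 250 bases before the RefSeq start of the subunit genes are shown because these genes share a receptor and moved in opposite directions. They are from GRCm38.p6, read 5′ to 3′ on the strand of the gene, with capitals for CAGCTG, an E-box of the kind bound by myogenic factors, and for CCGGAA, the core of the N-box described in synaptic genes, each searched on both strands.
Chrng, chr1:87205561-87205810 (plus strand): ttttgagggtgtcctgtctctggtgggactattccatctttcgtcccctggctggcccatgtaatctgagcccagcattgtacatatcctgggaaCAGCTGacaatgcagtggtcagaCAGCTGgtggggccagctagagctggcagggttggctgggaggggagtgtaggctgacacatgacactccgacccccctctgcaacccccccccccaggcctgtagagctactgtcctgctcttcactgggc
Chrna1, chr2:73580339-73580588 (minus strand): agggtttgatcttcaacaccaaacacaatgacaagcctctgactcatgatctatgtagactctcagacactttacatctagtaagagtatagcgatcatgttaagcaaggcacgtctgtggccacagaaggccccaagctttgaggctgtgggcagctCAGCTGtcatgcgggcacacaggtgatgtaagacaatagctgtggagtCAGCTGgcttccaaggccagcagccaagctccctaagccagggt
Chrne, chr11:70619195-70619444 (minus strand): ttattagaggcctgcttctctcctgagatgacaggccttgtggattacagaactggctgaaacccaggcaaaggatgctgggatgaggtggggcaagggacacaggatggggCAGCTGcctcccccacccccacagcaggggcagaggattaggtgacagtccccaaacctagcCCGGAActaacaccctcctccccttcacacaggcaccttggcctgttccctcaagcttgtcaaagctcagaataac
The window of Chrng holds 2 CAGCTG, which begin 155 and 132 bases before the start, and that of Chrna1 holds 2, at 92 and 44 bases. The window of Chrne holds 1 CAGCTG at 138 bases and 1 CCGGAA at 76 bases. The window of Chrnb1 (the beta subunit) holds neither. Of 32851 RefSeq promoter windows of this length, 13% hold CAGCTG, 1.26% hold it at least 2 times, 12% hold CCGGAA and 1.29% hold both. In GENCODE vM21 the Chrng window lies in an intron of 1 longer transcript of the gene. A match of letters is a description of the window and was not tested as a site.

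Of 20 junction genes, receptor subunits included, 6 fell and 2 rose, beside 4.31% and 6.09% of all genes. The median log2 fold change of the list was -0.78 (0.00 over all genes tested). Ncam1, an adhesion molecule spread over young and uninnervated fibres, stood at 104, 113 and 116 CPM at P8 and 37.8, 55.5 and 48.4 CPM at P23 (log2 fold change -1.23, SE 0.16, adjusted p = 0.00238). Nrg1, a nerve-derived ligand of ErbB receptors, fell by 1.84 (adjusted p = 0.00822). All P23 libraries lay below all P8 libraries for 14 of the 20 genes, while 26.9% of all genes tested did so. For Ncam1 and Nrg1, each call was lost without at least 1 library, and adjusted p reached 0.0424 (Nrg1, without P8 replicate 2).

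Several satellite cell and myoblast genes fell. Of 29 myogenic regulators and satellite cell genes, 9 fell and 2 rose (median -0.31), beside 4.31% and 6.09% of all genes. Pax7, the transcription factor that marks satellite cells, stood at 38.9, 44.5 and 44.4 CPM at P8 and 14.8, 16.1 and 16.8 CPM at P23 (log2 fold change -1.42, SE 0.13, adjusted p = 0.000858). Myog, which drives myoblast differentiation, stood at 397, 307 and 337 CPM at P8 and 71.97, 113 and 80.7 CPM at P23 (log2 fold change -1.97, SE 0.21, adjusted p = 0.00137). Both groups were tight and far apart. The fusion genes Mymk and Mymx fell by 1.97 (adjusted p = 0.00267) and 2.41 (adjusted p = 0.00144) on the log2 scale. Calcr, a receptor of quiescent satellite cells, went from 21.8, 23.5 and 22.1 CPM at P8 to 2.42, 4.37 and 4.56 CPM at P23 (log2 fold change -2.57, adjusted p = 0.00111). Myod1, the myoblast determination factor, stood at 103, 82.98 and 93.5 CPM at P8 and 103, 87.6 and 87.8 CPM at P23, and the groups overlapped (log2 fold change -0.01, adjusted p = 0.977). Mstn, the secreted brake on muscle growth made by fibres, rose from 82.5, 96.8 and 87.2 CPM at P8 to 549.9, 324 and 238 CPM at P23 (log2 fold change 2.06, adjusted p = 0.00327). Of these genes, Pax7, Myog, Mymx and Calcr stayed called without each of the 6 libraries, and the others had adjusted p values up to 0.021 (Mstn, without P8 replicate 3).

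Genes of energy supply rose more often than they fell, except for the respiratory, glycolytic and creatine kinase lists on the pan-muscle scale. Among 56 genes of the respiratory chain and myoglobin, 7 rose and 0 fell (median 0.76), beside 6.09% and 4.31% of all genes. In glycogen use and glycolysis 6 of 27 rose and 1 fell, in fatty acid uptake and oxidation 6 of 32 rose and 0 fell. Mb, the oxygen store myoglobin, stood at 23.997, 39.5 and 43.5 CPM at P8 and 3094, 1069 and 1219 CPM at P23 (log2 fold change 5.65, SE 0.53, adjusted p = 0.000936), and the lowest P23 library was far above the highest P8 library. On the pan-muscle scale, Mb was the 1 gene of its list called higher (log2 fold change 4.56), and 3 were lower. On that scale 2 glycolytic genes were higher and 3 lower, and of the fatty acid genes 2 were higher and 1 lower.

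The muscle-type respiratory subunits Cox7a1 and Cox6a2 rose by 2.30 (adjusted p = 0.00415) and 1.43 (adjusted p = 0.00938). Slc2a4, the insulin-responsive glucose transporter, stood at 83.2, 77.7 and 75.4 CPM at P8 and 455, 165 and 212 CPM at P23 (log2 fold change 1.82, SE 0.36, adjusted p = 0.00873), and Gpd1 of the glycerol phosphate shuttle rose by 2.32 (adjusted p = 0.00336). Pdk4, which turns pyruvate away from oxidation, stood at 65.8, 91.3 and 89.4 CPM at P8 and 506, 449.8 and 321 CPM at P23 (log2 fold change 2.37, SE 0.23, adjusted p = 0.000991). The uncoupling protein gene Ucp3 rose by 2.41 (adjusted p = 0.0022). Eno1, the general enolase, was the glycolytic gene that fell, with a log2 fold change of -1.15 (adjusted p = 0.0046). Of 10 creatine and adenylate kinase genes 3 rose and 1 fell, beside 6.09% and 4.31% of all genes. On the pan-muscle scale 1 of this list was higher and 2 were lower. The kinases Ckm and Ckmt2 rose by 1.61 (adjusted p = 0.00762) and 2.69 (adjusted p = 0.00244), whereas Gatm, the first enzyme of creatine synthesis, stood at 416, 322 and 376 CPM at P8 and 43.5, 66.5 and 41.9 CPM at P23 (log2 fold change -2.87, SE 0.23, adjusted p = 0.000636). Scaled on the pan-muscle genes, Ckm, Slc2a4, Cox6a2 and Cox7a1 lost their calls (log2 fold changes 0.58, 0.73, 0.37 and 1.25). Leaving out single libraries ended no call of Mb, Pdk4 and Gatm, while the others had adjusted p values up to 0.0476 (Ckm, without P8 replicate 3).

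Of 23 regulators of muscle growth and wasting, 11 rose and 2 fell (median 0.67), beside 6.09% and 4.31% of all genes. Fbxo32 (atrogin-1) and Trim63 (MuRF1) are ubiquitin ligases of wasting muscle. Fbxo32 stood at 17.1, 18.5 and 16.9 CPM at P8 and 161, 97.99 and 89.4 CPM at P23 (log2 fold change 2.73, adjusted p = 0.000745). Trim63 stood at 43.1, 38.7 and 32.8 CPM at P8 and 204, 114 and 96.005 CPM at P23 (log2 fold change 1.85, adjusted p = 0.00401). Both were apart between ages, with P23 replicate 1 highest. Klf15, a glucocorticoid-responsive factor, rose by 2.99 (adjusted p = 0.00174). On the pan-muscle scale 3 of the list were higher and 5 lower, and Trim63 lost its call (log2 fold change 0.80, adjusted p = 0.0258). The calls of Fbxo32 held with each library left out in turn, and the highest adjusted p among the others was 0.023 (Trim63, without P8 replicate 3).

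Imprinted genes are read from a single parental copy, and many promote or restrain growth before weaning. Of 34 tested, 18 fell and 0 rose, beside 4.31% and 6.09% of all genes. The median log2 fold change of the list was -1.69. Rtl1, a retrotransposon-derived gene of placenta and muscle, stood at 273, 430.5 and 478 CPM at P8 and 3.01, 1.58 and 2.20 CPM at P23 (log2 fold change -7.45, SE 0.36, adjusted p = 0.000333). This was the largest fall among called genes with a mean of at least 10 CPM at P8 and groups that did not overlap. Predicted genes, with names such as Gm or Rik, were left out of that ranking. An antisense transcript overlaps Rtl1, and whether strand was used in counting is not given in the sources used here. Dlk1, which encodes a Notch-related membrane protein of fetal muscle and preadipocytes, stood at 4882, 3518 and 3874 CPM at P8 and 7.37, 65.7 and 168 CPM at P23 (log2 fold change -5.67, SE 1.02, adjusted p = 0.0066). Its P23 values spread widely, and all lay far below P8. Both genes lie on chromosome 12 (GRCm38), Dlk1 at 109452823 to 109463336 and Rtl1 at 109589193 to 109600330.

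Igf2, the fetal insulin-like growth factor, stood at 6159, 6443 and 6781 CPM at P8 and 311, 537 and 488 CPM at P23 (log2 fold change -3.86, SE 0.29, adjusted p = 0.000572). All P8 libraries were more than 10-fold above all P23 libraries. Its receptor gene Igf2r, which clears the ligand, fell by 1.60 (adjusted p = 0.00232). Plagl1, a zinc finger factor that acts on other imprinted genes, stood at 824, 909 and 1033 CPM at P8 and 26.1, 61.6 and 76.6 CPM at P23 (log2 fold change -4.07, SE 0.40, adjusted p = 0.00111). Peg10 fell by 4.62 (adjusted p = 0.000936), Mest by 3.44 (adjusted p = 0.00483) and Peg3 by 2.83 (adjusted p = 0.00137). The growth restrainers Cdkn1c and Grb10 fell as well, by 2.21 (adjusted p = 0.00223) and 1.87 (adjusted p = 0.00346). Magel2 and Usp29 fell by 5.31 (adjusted p = 0.00266) and 4.83 (adjusted p = 0.000903). Whichever library was left out, Rtl1, Igf2, Plagl1, Peg10, Peg3 and Usp29 kept the call, and the others reached an adjusted p of up to 0.0248 (Dlk1, without P23 replicate 2).

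Of 21 fetal RNA-binding and chromatin genes 6 fell and 0 rose (median -0.61), beside 4.31% and 6.09% of all genes. Igf2bp3, of a family that binds Igf2 and other fetal transcripts, stood at 23.997, 19.2 and 26.7 CPM at P8 and 0, 0.339 and 0.577 CPM at P23 (log2 fold change -6.18, SE 0.67, adjusted p = 0.00142). Igf2bp1 fell by 3.60 (adjusted p = 0.00182) and Igf2bp2 by 1.66 (adjusted p = 0.00399). Hmga2, a fetal chromatin protein, stood at 7.78, 4.43 and 2.91 CPM at P8 and had 0 counts in all 3 P23 libraries, at least 55.8-fold lower against a floor of 3 counts per library. Igf1, the postnatal growth factor, stood at 183, 211 and 195 CPM at P8 and 107, 259 and 265 CPM at P23, with overlapping groups (log2 fold change 0.10, adjusted p = 0.826). In the IGF axis 2 of 20 genes rose, including the binding protein Igfbp5, at 1078, 1446 and 1326 CPM at P8 and 2759, 2945 and 2457 CPM at P23 (log2 fold change 1.08, SE 0.21, adjusted p = 0.00782). Irs2, an adaptor of the insulin receptors, was among the 3 that fell (log2 fold change -1.33, adjusted p = 0.00152). With 1 library left out, adjusted p reached 0.0448 (Igfbp5, without P8 replicate 3), and none of Igf2bp3, Igf2bp1, Igf2bp2, Hmga2, Igfbp5 and Irs2 kept its call in all 6 cases.

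Cell cycle genes lay lower at P23. Of 59 tested, 17 fell and 0 rose, beside 4.31% and 6.09% of all genes. All P23 libraries lay below all P8 libraries for 58 (26.9% of all genes did so). The median log2 fold change was -1.43. Ccne1, the cyclin of entry into DNA replication, stood at 49.1, 29.2 and 34.5 CPM at P8 and 2.87, 4.995 and 4.89 CPM at P23 (log2 fold change -3.14, SE 0.29, adjusted p = 0.000903). The replication factor E2f1 fell by 2.23 (adjusted p = 0.00165). Top2a, the mitotic topoisomerase, stood at 124, 145 and 157 CPM at P8 and 15.6, 55.7 and 37.2 CPM at P23 (log2 fold change -1.97, SE 0.40, adjusted p = 0.00989). Mki67, the proliferation marker, stood at 116, 205 and 211 CPM at P8 and 23.1, 73.8 and 44.05 CPM at P23 and missed the threshold (log2 fold change -1.92, adjusted p = 0.0125). P23 replicate 1, the library with the most muscle RNA, was the lowest for Ccne1, Top2a and Mki67. Leaving out single libraries ended no call of Ccne1, while the others had adjusted p values up to 0.0367 (Top2a, without P8 replicate 3).

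**Figure D3:**
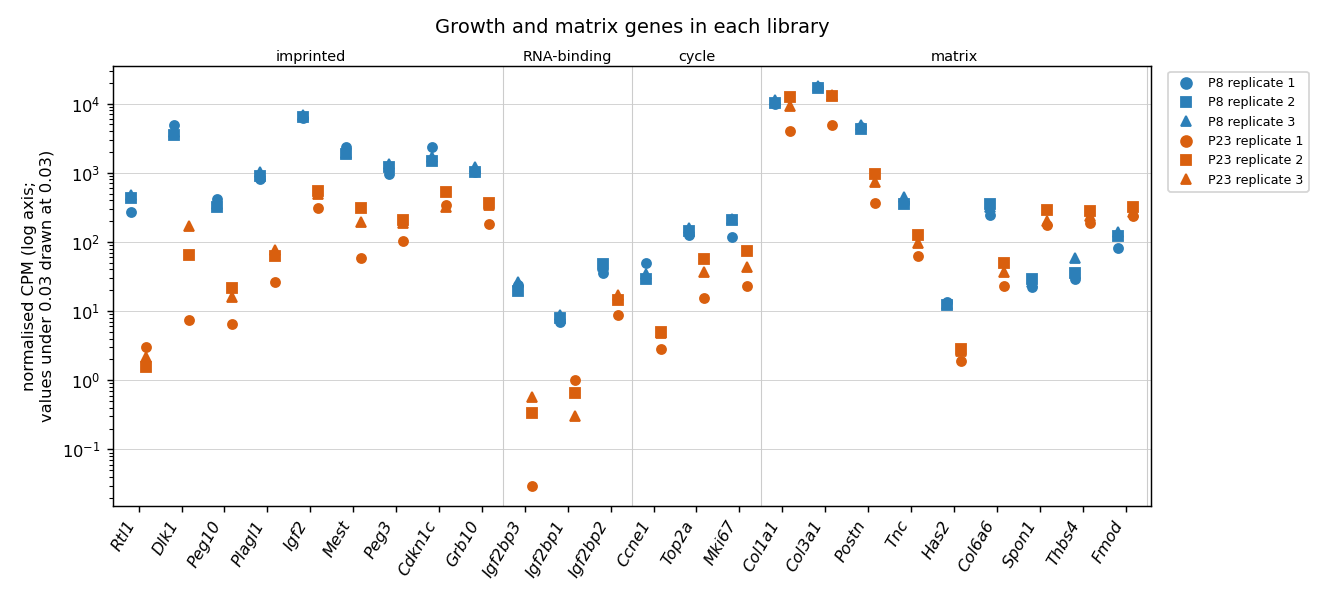
Each point is 1 WT gubernaculum library, with normalised CPM on a log axis for imprinted, RNA-binding, cell cycle and matrix genes. The imprinted and RNA-binding genes are lower in every P23 library, Col1a1 overlaps between ages, and Spon1, Thbs4 and Fmod are higher in every P23 library.

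Called collagen chains changed in both directions. Of 41 collagen chain genes tested, 4 rose and 5 fell (median -0.54), beside 6.09% and 4.31% of all genes. Log2 fold changes were negative for 26 chains and positive for 15. The chains summed to 49798 to 56455 CPM at P8 and to 19914, 53088 and 44239 CPM at P23. Col1a1, the main fibrillar chain, stood at 9882, 10221 and 11127 CPM at P8 and 3961, 12410.2 and 9284 CPM at P23, and Col3a1 at 17287, 16929 and 18155 CPM at P8 and 4920.3, 12959.5 and 13194 CPM at P23. P23 replicate 1 was the low library for both, and neither passed the test (log2 fold changes -0.28 and -0.75, adjusted p = 0.613 and 0.176). Col6a6, a chain of the microfibrillar collagen VI, stood at 246, 349.7 and 321 CPM at P8 and 22.999, 49.8 and 37.2 CPM at P23 (log2 fold change -3.06, SE 0.30, adjusted p = 0.00111). Col11a1 rose by 1.94 (adjusted p = 0.00812) and the basement membrane chain Col4a3 by 2.02 (adjusted p = 0.0066). Of the procollagen proteases, Adamts2 rose by 1.77 (adjusted p = 0.00445) and Adamts14 fell by 2.40 (adjusted p = 0.000991). The calls of Col6a6 and Adamts14 held with each library left out in turn, and the highest adjusted p among the others was 0.0392 (Col11a1, without P8 replicate 2).

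Several matrix genes of growing or remodelling tissue fell. Postn (periostin) stood at 4524, 4352 and 4829 CPM at P8 and 362, 955 and 745 CPM at P23 (log2 fold change -2.73, SE 0.37, adjusted p = 0.00252). Tnc (tenascin-C) stood at 363, 352 and 449.8 CPM at P8 and 62.04, 127 and 95.7 CPM at P23 (log2 fold change -2.03, SE 0.27, adjusted p = 0.00244). Has2, the main hyaluronan synthase, stood at 13.3, 12.4 and 12.6 CPM at P8 and 1.90, 2.79 and 2.66 CPM at P23 (log2 fold change -2.38, SE 0.22, adjusted p = 0.000903). Every P8 library was well above every P23 library for these genes. Vcan (versican), the proteoglycan that binds hyaluronan, fell by 1.84 (adjusted p = 0.00252), the hyaluronan receptor Cd44 by 2.15 (adjusted p = 0.000636), the fetal fibrillin Fbn2 by 2.08 (adjusted p = 0.00839), and the membrane metalloprotease Mmp16 by 2.37 (adjusted p = 0.00445). Whichever library was left out, Has2 and Cd44 kept the call, and the others reached an adjusted p of up to 0.0339 (Fbn2, without P8 replicate 3).

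A few other matrix genes rose over the same interval. Spon1 (F-spondin) stood at 22.5, 28.9 and 26.7 CPM at P8 and 173, 289.8 and 201 CPM at P23 (log2 fold change 3.09, SE 0.23, adjusted p = 0.000568). Thbs4, a thrombospondin of tendon and muscle, stood at 29.5, 35.6 and 58.4 CPM at P8 and 187, 283 and 240.3 CPM at P23 (log2 fold change 2.52, SE 0.29, adjusted p = 0.00163). Fmod (fibromodulin), which binds collagen fibrils, stood at 82.3, 122 and 139 CPM at P8 and 238, 324 and 272 CPM at P23 (log2 fold change 1.28, SE 0.22, adjusted p = 0.00595). These groups did not overlap. Omd (osteomodulin) rose by 1.66 (adjusted p = 0.00515). Timp4, a metalloprotease inhibitor, stood at 0.532, 0.716 and 0 CPM at P8 and 13.3, 5.79 and 10.4 CPM at P23 (log2 fold change 4.55, SE 0.88, adjusted p = 0.00832). Of these genes, Spon1 stayed called without each of the 6 libraries, and the others had adjusted p values up to 0.0351 (Timp4, without P8 replicate 1). Over all genes tested, 6.09% rose and 4.31% fell. In proteoglycans and hyaluronan 2 of 32 genes rose and 6 fell. In elastic fibres 0 of 18 rose and 2 fell, in collagen processing 1 and 1 of 29, in matrix proteases and inhibitors 1 and 3 of 31, and in basement membrane and adhesive glycoproteins 3 and 4 of 32.

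Rxfp2, the receptor of INSL3, stood at 34.7, 43.6 and 39.2 CPM at P8 and 108, 85.9 and 56.2 CPM at P23, higher in every P23 library, but missed the threshold (log2 fold change 1.09, SE 0.23, adjusted p = 0.0114). The 2 of 14 genes of INSL3, relaxin and steroid signalling that rose were Pgr and Esr1, receptors of progesterone and oestrogen. Of all genes tested, 6.09% rose and 4.31% fell. Pgr stood at 1.20, 1.72 and 1.76 CPM at P8 and 29.6, 28.4 and 9.39 CPM at P23 (log2 fold change 3.84, SE 0.46, adjusted p = 0.00182). Esr1 stood at 94.7, 106 and 71.1 CPM at P8 and 165, 257 and 169 CPM at P23 (log2 fold change 1.12, SE 0.23, adjusted p = 0.0099). The calls of Pgr, Esr1 and Ramp3 were each lost without at least 1 library, with adjusted p up to 0.0413 (Esr1, without P8 replicate 3). Rxfp1, the relaxin receptor, had 0.476, 2.33 and 1.29 CPM at P8 and 22.9, 4.57 and 2.47 CPM at P23 (log2 fold change 2.86, adjusted p = 0.0435), with replicate 1 far above the others. Insl3 itself was near the limit, at 2.44, 0.663 and 0.811 CPM at P8 and 0.934, 0.254 and 0.549 CPM at P23. In the list of CGRP, a nerve peptide that acts on the gubernaculum, and adrenomedullin, 1 of 8 genes rose, the receptor partner Ramp3 (log2 fold change 2.12, adjusted p = 0.00268), and 1 fell, Calcr.

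Targets of systemic hormones rose more often than they fell. Of 18 glucocorticoid targets 9 rose and 1 fell, beside 6.09% and 4.31% of all genes, with a median of 1.63. Tsc22d3 (GILZ), an anti-inflammatory target, stood at 43.7, 42.02 and 44.1 CPM at P8 and 457, 224 and 224 CPM at P23 (log2 fold change 2.80, SE 0.30, adjusted p = 0.00137). Fkbp5, a co-chaperone of the receptor, stood at 23.5, 23.3 and 20.9 CPM at P8 and 82.4, 46.2 and 67.6 CPM at P23 (log2 fold change 1.53, SE 0.21, adjusted p = 0.00268). Groups did not overlap for either. Cdkn1a, the cell cycle inhibitor p21, was the listed target that fell, with a log2 fold change of -1.58 (adjusted p = 0.00535). Of 13 genes of thyroid hormone handling and response 7 rose and 0 fell, among them the receptor Thrb, at 1.29, 0.689 and 1.43 CPM at P8 and 20.96, 11.01 and 8.76 CPM at P23 (log2 fold change 3.58, SE 0.44, adjusted p = 0.00186), and the corepressor Hr (log2 fold change 2.76, adjusted p = 0.00557). Several of these genes, such as Atp2a1 and Ucp3, are muscle genes named above. Of 18 clock genes 6 rose and 0 fell: the output factor Dbp stood at 15.9, 12.5 and 11.7 CPM at P8 and 133, 71.5 and 44.5 CPM at P23 (log2 fold change 2.63, SE 0.38, adjusted p = 0.00324), and Per3 rose by 1.78 (adjusted p = 0.00218). With 1 library left out, adjusted p reached 0.0296 (Hr, without P8 replicate 3), and none of Tsc22d3, Fkbp5, Cdkn1a, Thrb, Hr, Dbp and Per3 kept its call in all 6 cases. On the pan-muscle scale 5 glucocorticoid targets were higher and 3 lower, 4 and 2 of the thyroid list, and 1 and 2 of the clock genes. The time of day of collection is not given in the sources used here.

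Wnt genes changed in both directions. Of 49 Wnt genes 3 rose and 7 fell (median -0.13), beside 6.09% and 4.31% of all genes. The share that rose was close to that of all genes. Wif1, a secreted Wnt inhibitor, stood at 72.2, 39.8 and 36.1 CPM at P8 and 2.14, 2.14 and 8.43 CPM at P23 (log2 fold change -3.53, SE 0.59, adjusted p = 0.00524), and Notum, an enzyme that inactivates Wnt proteins, fell by 3.48 (adjusted p = 0.00714). The ligands Wnt16, Wnt2 and Wnt11 fell by 2.93 (adjusted p = 0.00156), 2.62 (adjusted p = 0.00718) and 1.64 (adjusted p = 0.00549). Sfrp5, a decoy of Wnt ligands, stood at 2.46, 2.49 and 3.52 CPM at P8 and 13.4, 14.6 and 16.2 CPM at P23 (log2 fold change 2.38, SE 0.22, adjusted p = 0.000903), with little spread within either age. Sfrp4 and the receptor Fzd4 rose by 1.87 (adjusted p = 0.00562) and 1.33 (adjusted p = 0.00644). Whichever library was left out, Sfrp5 kept the call, and the others reached an adjusted p of up to 0.0333 (Fzd4, without P8 replicate 2).

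Counts in other pathways stand beside the 6.09% of all genes that rose and the 4.31% that fell. The TGF-beta and BMP list and the Hox list did not exceed these shares. In FGF signalling 1 of 23 rose and 4 fell: the ligand Fgf1 stood at 12.5, 24.05 and 19.9 CPM at P8 and 108, 78.5 and 64.7 CPM at P23 (log2 fold change 2.15, SE 0.28, adjusted p = 0.00238), and Fgfr4, a receptor of myoblasts, at 109.5, 86.7 and 98.8 CPM at P8 and 22.8, 33.8 and 22.4 CPM at P23 (log2 fold change -1.90, SE 0.19, adjusted p = 0.00116). The mesenchymal ligand Fgf10 fell by 1.44 (adjusted p = 0.00458). In Hedgehog signalling 1 of 12 fell, the transcription factor Gli3 (log2 fold change -1.82, adjusted p = 0.00513). In Notch signalling 3 of 22 fell, including the receptor Notch1 (log2 fold change -1.30, adjusted p = 0.00973). In the TGF-beta and BMP list 2 of 34 rose, Mstn and the ligand Bmp4 (log2 fold change 1.66, adjusted p = 0.00449). Of 32 Hox genes, which mark position along the body, 1 rose, Hoxc6 (log2 fold change 1.33, adjusted p = 0.00595), although the list's median was 0.55 and 15 genes were higher in every P23 library, as were 27.3% of all genes. Hoxa10, needed for testis descent in mice, had a log2 fold change of 0.98 (adjusted p = 0.00226), just below the 2-fold limit. Of these genes, Fgfr4 stayed called without each of the 6 libraries, and the others had adjusted p values up to 0.0394 (Notch1, without P8 replicate 3).

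**Figure D4:**
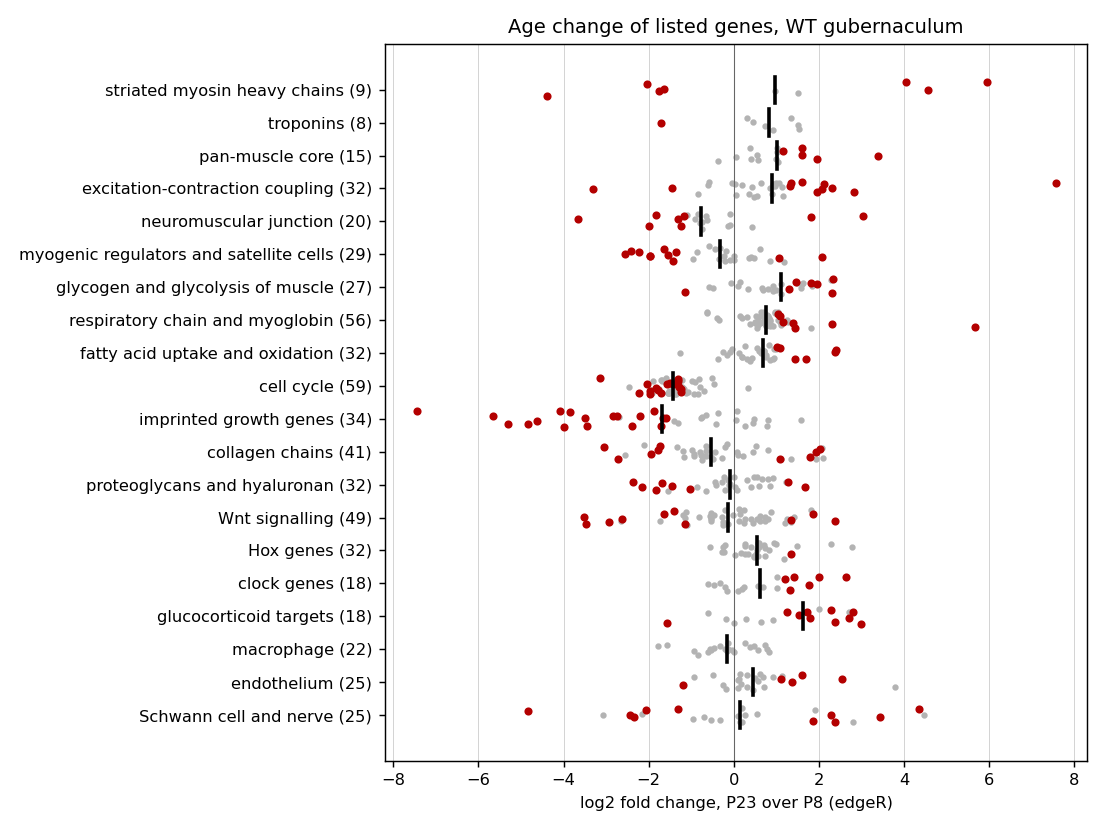
Each point is 1 gene of a list, placed by its edgeR log2 fold change from P8 to P23 in WT gubernaculum. Red points passed the threshold (adjusted p under 0.01 and at least 2-fold), black bars are list medians, and the number of genes tested is in parentheses. Cell cycle and imprinted genes lie mostly left of 0, and glucocorticoid targets mostly right, on the TMM scale.

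Among immune genes, those of MHC class II, which present antigen to helper T cells, rose. Cd74, the invariant chain, stood at 2.88, 3.74 and 5.43 CPM at P8 and 94.8, 184 and 91.2 CPM at P23 (log2 fold change 4.94, SE 0.38, adjusted p = 0.000627). H2-Aa stood at 1.79, 0.954 and 2.01 CPM at P8 and 40.8, 81.8 and 31.8 CPM at P23 (log2 fold change 5.02, SE 0.46, adjusted p = 0.000892), and H2-Ab1 and H2-Eb1 rose by 4.61 (adjusted p = 0.000734) and 4.74 (adjusted p = 0.000802). P23 replicate 2 was highest and every P23 library was above every P8 library. These were the 4 genes that rose of 12 tested in the lymphocyte and antigen presentation list. Of all genes tested, 6.09% rose and 4.31% fell. Of 22 macrophage genes 0 rose and 0 fell, and Csf1r stood at 74.1, 85.4 and 111 CPM at P8 and 43.8, 103 and 69.6 CPM at P23 (log2 fold change -0.32, adjusted p = 0.435). Mast cell genes fell: 4 of 10, with Cma1, a chymase, at 39.6, 38.6 and 45.3 CPM at P8 and 4.43, 4.57 and 8.76 CPM at P23 (log2 fold change -2.79, SE 0.28, adjusted p = 0.00112), and the proteases Cpa3, Mcpt4 and Tpsb2 at log2 fold changes of -2.98 (adjusted p = 0.0063), -2.39 (adjusted p = 0.00211) and -2.89 (adjusted p = 0.00146). Leaving out single libraries ended no call of Cd74, H2-Aa, H2-Ab1, H2-Eb1, Cma1 and Tpsb2, while the others had adjusted p values up to 0.0269 (Cpa3, without P8 replicate 3).

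Nerve genes changed in both directions. Of 25 genes of Schwann cells and nerve, 5 rose and 5 fell, beside 6.09% and 4.31% of all genes. Mbp, a myelin protein, stood at 8.48, 27.2 and 35.04 CPM at P8 and 129, 118 and 122 CPM at P23 (log2 fold change 2.38, SE 0.45, adjusted p = 0.00743). Ncmap, of myelin as well, stood at 0.0840, 0.371 and 0.839 CPM at P8 and 7.99, 7.62 and 10.8 CPM at P23 (log2 fold change 4.34, SE 0.65, adjusted p = 0.00355). P8 replicate 1 was the lowest library for both genes. Ngfr, a receptor of immature Schwann cells, fell by 2.44 (adjusted p = 0.00483), and the axonal genes Gap43 and Nefl by 2.35 (adjusted p = 0.00306) and 4.83 (adjusted p = 0.00484). Sox10, found in Schwann cells of every stage, stood at 15.2, 14.8 and 15.9 CPM at P8 and 10.1, 8.33 and 18.4 CPM at P23 (adjusted p = 0.423). For Mbp, Ncmap, Ngfr, Gap43 and Nefl, each call was lost without at least 1 library, and adjusted p reached 0.0317 (Mbp, without P8 replicate 2).

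Some smooth muscle genes rose, with 1 library far above the others. Actg2, a smooth muscle actin, stood at 3.02, 1.75 and 2.24 CPM at P8 and 41.6, 65.5 and 263 CPM at P23 (log2 fold change 5.72, SE 0.77, adjusted p = 0.00258), and Cnn1 (calponin) at 3.53, 2.97 and 1.23 CPM at P8 and 29.4, 44.8 and 284 CPM at P23 (log2 fold change 5.53, SE 0.99, adjusted p = 0.00643). Myh11, the smooth muscle myosin, stood at 10.1, 26.5 and 38.4 CPM at P8 and 84.1, 106 and 875 CPM at P23 (adjusted p = 0.0227). P23 replicate 3 was the highest by several fold for all 3, and it was the library with Crisp1, Adam7 at 12.99 CPM, Pax2 at 15.2 CPM and Epcam, of epithelium, at 0.138, 0.677 and 55.7 CPM at P23. Without it, the log2 fold changes were 4.52 for Actg2 (adjusted p = 0.000747), 3.85 for Cnn1 (adjusted p = 0.00241) and 1.92 for Myh11 (adjusted p = 0.0249). Of 22 genes of smooth muscle and pericytes 6 rose and 0 fell, beside 6.09% and 4.31% of all genes. In this list 18 log2 fold changes were positive and 4 negative. Acta2, a listed actin gene, had 36580, 30274 and 26162 counts at P8 and 8898, 22813 and 61328 at P23. For Acta2, P23 replicates 1 and 2 lay below every P8 library. Of 25 endothelial genes 4 rose and 1 fell. Plvap, of fenestrated capillaries, stood at 11.5, 9.60 and 14.5 CPM at P8 and 62.7, 74.3 and 71.4 CPM at P23 (log2 fold change 2.55, SE 0.18, adjusted p = 0.00056), and Prox1, of lymphatic vessels, fell by 1.19 (adjusted p = 0.0026). Whichever library was left out, Plvap kept the call, and the others reached an adjusted p of up to 0.0318 (Cnn1, without P8 replicate 2).

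Markers of other tissues were checked in the same way, beside 6.09% of all genes that rose and 4.31% that fell. Of 31 white adipocyte genes, 22 were tested and 9 rose, led by Car3 (log2 fold change 2.78, adjusted p = 0.0036), which muscle also expresses. The defining adipocyte genes were near 0, with Adipoq at 0.168, 0.159 and 0.196 CPM at P8 and 0.380, 0.226 and 0 CPM at P23 and Plin1 at 0.224, 0.265 and 0.503 CPM at P8 and 0.968, 0 and 0.275 CPM at P23. Of 11 brown adipocyte genes 0 rose, and of 12 hepatocyte genes 0 passed the filter on low counts. Of 29 fibroblast genes 3 rose, including S100a4 (log2 fold change 3.07, adjusted p = 0.00133), and of 13 tendon and cartilage genes 3 rose and 1 fell, the latter Egr1, an early response factor (log2 fold change -2.75, SE 0.20, adjusted p = 0.00056). The fibroblast list had a median log2 fold change of 0.03, with 16 values positive and 13 negative. Of 14 mesothelial genes 1 rose, Gpm6a (log2 fold change 2.47, adjusted p = 0.00676), while Msln stood at 21.6, 77.997 and 71.99 CPM at P8 and 168, 174 and 81.3 CPM at P23 (adjusted p = 0.0702). Of 20 germ cell and testis genes 2 fell, including the steroidogenic Cyp11a1 (log2 fold change -2.93, adjusted p = 0.00346). Of 7 duct epithelium genes 1 rose, Krt18 (log2 fold change 2.19, adjusted p = 0.00375), and of 9 erythroid and granulocyte and 8 keratinocyte genes 0 rose. Krt18 stood at 20.5, 25.6 and 33.1 CPM at P23, and its log2 fold change was 1.99 (adjusted p = 0.00845) without P23 replicate 3. Of these genes, Egr1 stayed called without each of the 6 libraries, and the others had adjusted p values up to 0.0311 (Gpm6a, without P8 replicate 3).

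**Figure D5:**
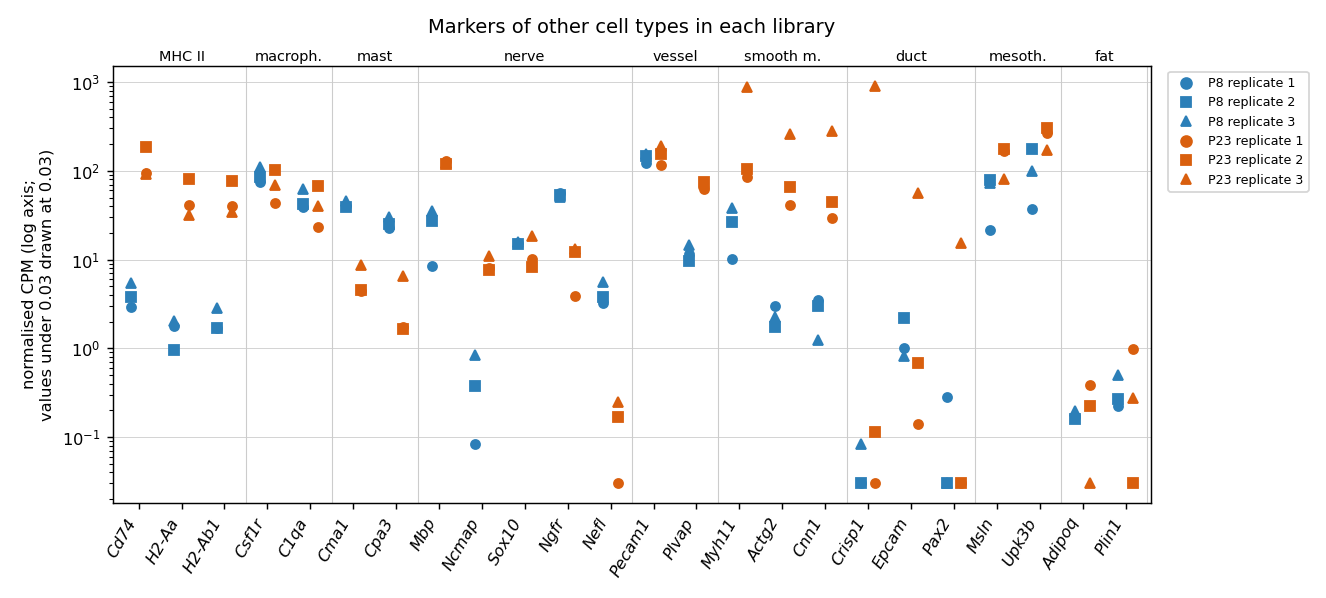
Each point is 1 WT gubernaculum library, with normalised CPM on a log axis for markers of other cell types. MHC class II, myelin and Plvap points are higher in all P23 libraries, mast cell points are lower, and P23 replicate 3 alone is high for Crisp1, Epcam and Pax2 and highest for Myh11, Actg2 and Cnn1.

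Beyond the lists, the 10 largest rises were taken among called genes with a mean of at least 10 CPM at the higher age and groups that did not overlap. Predicted genes, with names such as Gm or Rik, were left out. Mss51, a mitochondrial protein of fast muscle, stood at 1.32, 1.33 and 1.99 CPM at P8 and 398, 139.6 and 78.4 CPM at P23 (log2 fold change 7.05, SE 0.70, adjusted p = 0.00111). Tuba8, a muscle and testis tubulin, stood at 1.79, 2.76 and 1.03 CPM at P8 and 212, 103 and 90.95 CPM at P23 (log2 fold change 6.17, SE 0.49, adjusted p = 0.000653). Neu2, a cytosolic sialidase of muscle, stood at 1.18, 4.67 and 2.35 CPM at P8 and 296, 109 and 106 CPM at P23 (log2 fold change 5.95, SE 0.65, adjusted p = 0.00148). P23 replicate 1 led in each, as for the myosins. Abcb4, a phospholipid transporter, rose by 6.34 (adjusted p = 0.00111) and Apol6 by 5.90 (adjusted p = 0.000633). Other rises rested more on 1 library: the complement gene C7 stood at 0, 0.265 and 0.420 CPM at P8 and 50.04, 5.48 and 5.11 CPM at P23 (log2 fold change 6.44, adjusted p = 0.00904), and Wisp2, a secreted CCN protein, at 0.224, 0.186 and 0.196 CPM at P8 and 37.3, 5.62 and 2.28 CPM at P23 (log2 fold change 6.19, adjusted p = 0.00744). Pcp4, which binds calmodulin, had 0, 3 and 0 counts at P8 and 2.42, 4.80 and 42.3 CPM at P23 (adjusted p = 0.0066). The ratio of its pooled counts per library total was 594 (95% exact Poisson interval 203 to 2883, for counting error only), and without P23 replicate 3, the library with epididymal RNA, 122 (41.2 to 594). Without P23 replicate 1, C7 had a log2 fold change of 4.50 and lost its call (adjusted p = 0.0149), Wisp2 had 4.26 and kept it (adjusted p = 0.00297), and without replicate 3 Pcp4 kept its call (adjusted p = 0.0054). Leaving out single libraries ended no call of Tuba8 and Apol6, while the others had adjusted p values up to 0.0413 (C7, without P8 replicate 2).

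The 10 largest falls, by the same rule, included Rtl1, Igf2bp3 and Dlk1. Arhgap36, which holds down protein kinase A, stood at 611, 484 and 560.5 CPM at P8 and 4.81, 9.29 and 15.3 CPM at P23 (log2 fold change -5.81, SE 0.44, adjusted p = 0.000603). Nrk, a kinase of embryonic muscle, stood at 557, 560.2 and 752 CPM at P8 and 3.42, 19.3 and 16.5 CPM at P23 (log2 fold change -5.57, SE 0.63, adjusted p = 0.00156). Prr32 stood at 77.003, 50.8 and 73.2 CPM at P8 and 0.415, 1.75 and 1.04 CPM at P23 (log2 fold change -5.94, SE 0.44, adjusted p = 0.000572). Every P8 library was far above every P23 library for these 3 genes. Snap91, a clathrin adaptor, fell by 5.91 (adjusted p = 0.000447), Tecrl fell by 5.23 (adjusted p = 0.00056), the receptor Gpr37 by 5.16 (adjusted p = 0.000656), and Erbb4, a receptor of neuregulins, by 4.80 (adjusted p = 0.000627). The calls of Rtl1, Arhgap36, Nrk, Prr32, Snap91, Tecrl, Gpr37 and Erbb4 held with each library left out in turn, and the highest adjusted p among the others was 0.0248 (Dlk1, without P23 replicate 2).

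The same ages were sequenced in INSL3-KI gubernaculum, with 3 libraries each, which held little skeletal muscle RNA at either age. Myh3 stood at 0.657, 0 and 0.0870 CPM at P8 and 0.227, 0.0905 and 0.132 CPM at P23 there, and Myh1 at 7.76, 0.229 and 0.261 CPM at P8 and 1.98, 0.362 and 0.485 CPM at P23. P23 INSL3-KI replicate 2 stood apart: Acta1 was at 667, 927 and 1230.0 CPM at P8 and 858, 12.5 and 569 CPM at P23 and Krt18 at 126, 175 and 131 CPM at P8 and 129, 1.27 and 234 CPM at P23 in INSL3-KI. In its own fit, edgeR called 0 genes (0%) of 15384 with age in INSL3-KI at the same threshold, 3079 had an unadjusted p under 0.05, and DESeq2 called 240 higher and 368 lower. Without P23 INSL3-KI replicate 2, edgeR again called 0 in either direction. Of the WT calls tested in both fits, the INSL3-KI log2 fold change had the sign of the WT change for 589 of 876 that rose in WT and for 424 of 606 that fell. The share of equal signs over all 14525 genes tested in both fits was not computed. These counts therefore do not show a shared age change.

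The interaction of age and genotype over 12 libraries, a test of the difference itself, called 42 of 16151 genes (0.26%), 14 (0.0867%) with a higher and 28 (0.173%) with a lower age change in INSL3-KI. Without P23 INSL3-KI replicate 2, 130 were higher and 216 lower, without replicate 3 250 and 205, and without any other single INSL3-KI library at most 3 and 4. Of the WT libraries, leaving out a P8 one left at most 1 and 4, P23 replicate 2 left 1 and 4, and P23 replicates 1 and 3 left 9 and 37 and 7 and 17. Of the 42 genes, 31 changed with age in WT, and 4 belonged to the lists, Igfbp5, Sfrp5, Cd44 and Peg10, named after their values were seen. Igfbp5, which rose in WT, stood at 838, 531 and 689 CPM at P8 and 225, 267 and 199.9 CPM at P23 in INSL3-KI, and the difference of the age changes was -2.72, SE 0.32, adjusted p = 0.0042. Cd44, which fell in WT from 177, 175 and 172 CPM at P8 to 30.7, 40.8 and 46.1 CPM at P23, stood at 44.8, 35.9 and 36.5 CPM at P8 and 33.1, 38.3 and 31.6 CPM at P23 in INSL3-KI, where the ages overlapped. For muscle genes, this difference compares tissues of unlike muscle content. INSL3-KI libraries also differed from WT in RNA of other tissues. Crisp1 had 24351, 55432 and 30537 counts at P8 in INSL3-KI, against 0, 0 and 3 in WT. Myh11 had 163665, 212394 and 164160 counts at P8 in INSL3-KI, against 360, 1000 and 1373 in WT. The adipocyte gene Adipoq had 29263, 63284 and 2839 counts at P23 in INSL3-KI, against 11, 8 and 0 in WT. The part of tissue composition in the difference was not tested for any gene.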

How the data were processed

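Whole gubernaculum RNA of 6 WT libraries (3 at P8, 3 at P23), and of 6 INSL3-KI libraries for the comparison of genotypes, was analysed from the first pair of tables the authors deposited: raw read counts per gene and FPKM values (reads scaled by gene length and depth). The submitters' processing notes name GRCm38 and HISAT2. The counting program, its strand setting and the annotation are not given in the sources used here. Entries without an Ensembl gene took 2.73 to 4.69% of the counts of a WT library and were left out. A second pair of tables was not used here. Genes were filtered with filterByExpr (minimum count 10, minimum total 15), scaled by TMM and tested with the quasi-likelihood test of edgeR 4.0.16 in R 4.3.3, with age as the term. P values were adjusted by the Benjamini-Hochberg method across the 15053 genes that passed the filter, and calls needed both an adjusted p below 0.01 and a change of 2-fold or more. The SE is the log2 fold change divided by the square root of its F statistic. The labels call the 3 libraries of a group biological replicates. Whether each was 1 animal or a pool is not given in the sources used here, and the p-values measure the spread between these libraries.

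Shares of myosin chains and within gene pairs were computed from the authors' deposited FPKM and compared by an exact permutation test. Positions are from GENCODE vM21 (GRCm38), and promoter windows from RefSeq (GRCm38.p6). Of 1221 listed gene symbols, 1208 were in the table, and the rest were not analysed here. The members, the 51 lists and the 21 pairs were chosen with earlier results of these data known. Genes named are leads of the lists, members of the pairs, the called member with the largest rise and fall in each list, and the 10 largest rises and falls among called genes with groups apart and a mean of at least 10 CPM. Predicted-gene names, such as those with Gm or Rik, were left out of these largest rises and falls. Alternatives used DESeq2 1.42.0, limma 3.58.1, other scalings and filters, and each library left out. The models were tested on simulated data. Some results are not reported here.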

Additional observations from a re-analysis of the deposited data

Results flagged for a closer look

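The age change of 5 genes named in the report differed between genotypes in the edgeR interaction test over 12 libraries. Values are the INSL3-KI log2 fold change from P8 to P23 minus that of WT, with n = 3 libraries per group. The difference was -2.76 for Sfrp5 (adjusted p = 0.00361), -2.72 for Igfbp5 (adjusted p = 0.0042) and -6.97 for Mss51 (adjusted p = 0.00422), all of which rose in WT. It was 1.9 for Cd44 (adjusted p = 0.00419) and 3.67 for Peg10 (adjusted p = 0.00795), both of which fell in WT. In INSL3-KI, Sfrp5 stood at 3.64, 3.86 and 3.25 CPM at P8 and 2.83, 3.05 and 2.74 CPM at P23, Mss51 at 0.935, 0.944 and 1.16 CPM at P8 and 1.22, 1.54 and 0.662 CPM at P23, and Peg10 at 17.5, 16.5 and 17.1 CPM at P8 and 7.85, 11.6 and 8.14 CPM at P23. DESeq2 called all 5, and so did edgeR without P23 INSL3-KI replicate 2 (adjusted p from 0.00329 to 0.00535), without P23 INSL3-KI replicate 3 or without P23 WT replicate 1. All 5 missed the threshold without any 1 of the P8 INSL3-KI libraries (adjusted p from 0.0138 to 0.0339), P8 WT replicate 1 or 2, P23 WT replicate 2 or P23 INSL3-KI replicate 1, and with the replicate block (adjusted p from 0.0211 to 0.0262). Without P8 WT replicate 3 only Sfrp5 kept its call (adjusted p = 0.0094), and without P23 WT replicate 3 Sfrp5 and Peg10 lost theirs (adjusted p = 0.0102 and 0.0163). The part of muscle content and of other tissue RNA in these differences was not tested.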

How the results depend on the processing

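In the comparison of P23 with P8 WT gubernaculum, 917 genes were higher and 649 lower. DESeq2 gave 1445 and 1152. The 4 gubernaculum groups in 1 fit gave 608 and 319, a change of at least 4-fold 348 and 217, and limma on log2(FPKM + 1) gave 584 higher. With the replicate block the counts were 238 and 252. The deviations of same-numbered WT libraries correlated at 0.0828, -0.0268 and 0.0297. With 3 libraries per age, these correlations cannot decide whether the numbers pair the samples. Single libraries left out gave 121 to 789 higher and 142 to 581 lower. Scaling by DESeq2 size factors or library size alone (which shifts the median of all genes by -0.115), TMM without muscle genes, no filter on low counts and all entries of the table kept both counts within 1.5 times, and 0 of the 1566 calls turned direction under any alternative. Genes with no call turned direction. Myh7 had -0.14 with pan-muscle scaling. Ttn had -0.12 with library size alone, -0.046 with the replicate block, -0.33 with limma on log2(FPKM + 1) or log2(FPKM + 0.1), -1.02 with pan-muscle scaling and -0.44 to 0.24 with single libraries left out. Myod1 had 0.0093 by TMM without muscle genes, 0.061 with 4 groups in 1 fit and -0.093 to 0.071 with libraries left out. Igf1 had -0.00697 with the replicate block, -0.088 and -0.098 by limma with pseudocounts of 1 and 0.1, -0.71 with pan-muscle scaling and -0.10 to 0.41 with libraries left out. The range with libraries left out was -0.65 to 0.053 for Col1a1 and -1.68 to 4.39 for Epcam. The cause was not tested. The gene pairs with a lower share of the first gene numbered 18, and the alternatives gave 18 to 20. For the difference of age changes between genotypes, 14 genes were higher in INSL3-KI and 28 lower. DESeq2 gave 392 and 733, the replicate block 1 and 0, and single libraries left out gave 0 to 250 and 0 to 216. For the age change within INSL3-KI, edgeR gave 0 and 0, DESeq2 240 and 368, and single libraries left out 0 to 1 and 0. The counts of calls per list on the pan-muscle scale, the alternatives for the age change within INSL3-KI, and those given for single genes whose age change differed between genotypes, were chosen after the data were seen. At 3 libraries a group, calls near the threshold depend on each library, and values near 0 CPM rest on few counts.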
